A study of Mus musculus with 5 samples.

Results

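Microtubules are hollow polymers of alpha- and beta-tubulin that grow and shrink mainly at their plus ends, are nucleated by gamma-tubulin complexes at the centrosome and serve as tracks for kinesin and dynein motors. In neural progenitors they build the mitotic spindle and the primary cilium, and in young neurons they carry mitochondria and vesicles along the growing axon. The genes described here are the 88 genes of the deposited table whose symbol names a kinesin or its adaptor, a dynein or dynactin subunit, a tubulin, an enzyme that modifies tubulin, a centrosomal protein or another microtubule-associated protein. They were chosen by name alone, out of 8034 genes with a symbol, and they own 287 of the 34714 sites of the table.

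ATAC-seq, in which a transposase cuts and tags open chromatin for sequencing, was run on C17.2 cells, an established line of mouse multipotent neural stem cells (strain CD1 x C57BL/6 per the labels). The 0 h library is the control, and 4 further libraries were taken 0.5, 1, 1.5 and 2 h after the serum-containing growth medium was exchanged for Knockout DMEM with GlutaMAX and N2 supplement. All 5 libraries carry the label of neural induction as their treatment. There was 1 library per time, so there is no replicate error, no test was possible, and every difference below is one between single libraries. For each short site, annotated as a transcription start, the table gives every library a whole number between 0 and 10. It was taken as how many intervals (entries) of the library's BED file, a list of genomic intervals, lie over the site. Such a number is neither a read count nor a normalised signal, the read depth behind it is unknown, and 0 means that no interval was listed there, which does not show closed chromatin. A gene is represented by 1 site, the one whose mean across libraries is highest, and it is called covered where that value is 1 or more.

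Of 10 neural progenitor markers, 6 were analysed: in the order 0, 0.5, 1, 1.5 and 2 h, Cdh2 held 3, 7, 5, 7 and 5 entries, Hes1 held 1 throughout, and Pax6 and Msi1 were at 0 in every library. Nes was at 0 except for 2 entries at 1.5 h, and Notch1 held 0, 1, 0, 1 and 3. Of the 3 neuronal markers analysed, Map2 and Mapt were covered in every library, Mapt at a site 1790 bp inside the gene, and Rbfox3 in none. The glial genes Mbp and Olig2 and the epithelial gene Epcam were at 0 throughout. In what follows, 5 values in a row always stand in this order of times. Of all genes, 72.8, 76.6, 72.5, 79.3 and 78.4% were covered, and of all sites 47.6, 58.7, 51.2, 66.9 and 65.7%. The 0 h and 1 h libraries thus covered fewer genes and sites than the rest, and the part of this in the results below was not tested.

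The members fall into 24 kinesins and their cargo adaptors, 5 dynein and dynactin genes, 8 tubulins, 9 tubulin-modifying enzymes, 21 genes of the centrosome and of microtubule nucleation, and 21 other microtubule-associated proteins. Covered members numbered 72, 74, 70, 76 and 76, which is 81.8, 84.1, 79.5, 86.4 and 86.4%. In each library this share was above that of all genes. Of the 88, 67 were covered in all 5 libraries (76.1%, against 69.1% of all genes), and 10 were at 0 in all 5 (11.4%, against 19.2%). The same value above 0 was held in every library by 12 of the 88 (13.6%, against 11.1% of all genes). Highest and lowest library were at least 3 entries apart for 14 members (15.9%, against 15% of all genes).

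**Figure D1:**
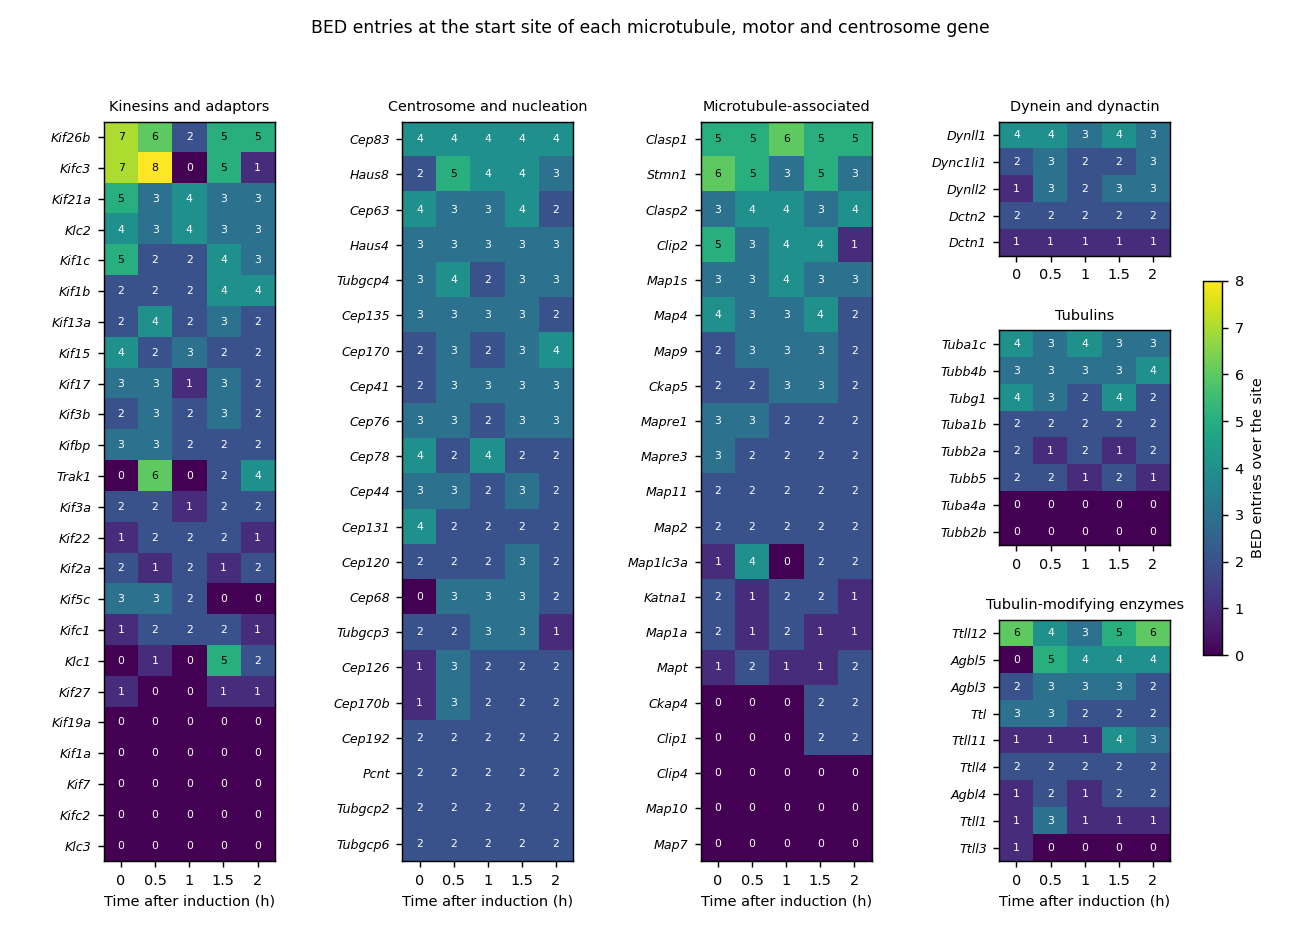
Number of BED entries over the site of each of the 88 members (rows, grouped by class and ordered by mean) in the 5 libraries (columns, hours after induction), with the value written in each cell and the colour scale running from 0 to 8. The kinesin panel holds the highest values (Kifc3 with 8 at 0.5 h) and 5 rows at 0, while all centrosome rows are covered from 0.5 h on.

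Most of these sites lie at annotated starts. The site lay within 100 bp of the nearest annotated start of its gene for 42 members, within 500 bp for 72 and within 1000 bp for 78, with a median distance of 113 bp. Never covered were 7 of the 78 members with a site within 1000 bp of a start and 3 of the 10 with a site farther away. Kif22, a chromokinesin, is named at a site 204 bp past the 3′ end of its gene (chr7:127027522-127027525), and that site lies 151 bp from one of the transcription factor gene Maz with equal values. The sites named for Kif22 are therefore not at its own start. Among other sites inside their genes, those of Kifc3, Dynll2, Ttll1 and Mapt lie 60256, 16225, 7544 and 1790 bp from the nearest annotated start.

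**Figure D2:**
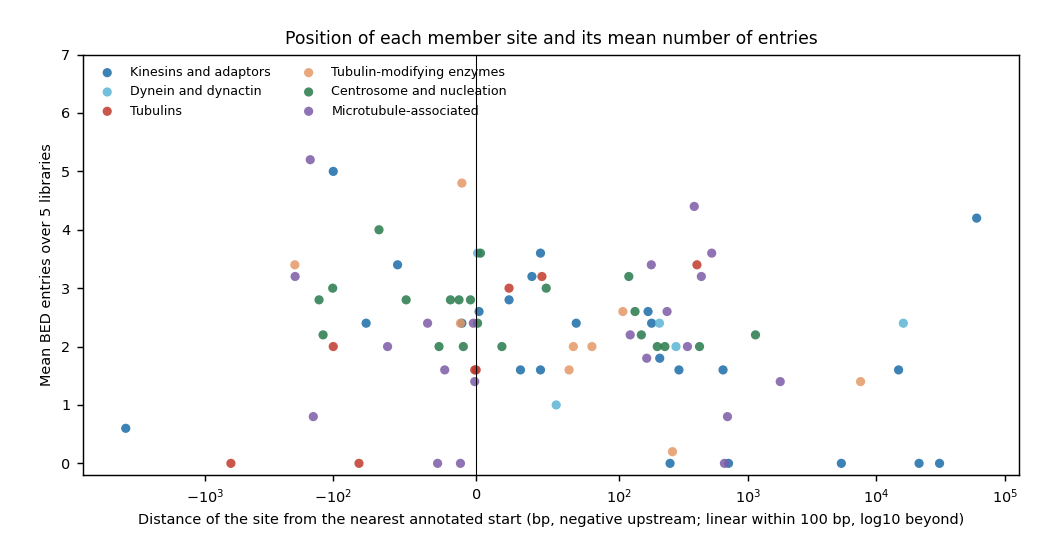
Each point is 1 member, placed by the distance of its site from the nearest annotated start of its gene (bp, negative upstream, linear within 100 bp and log10 beyond) and by its mean number of entries over the 5 libraries. Most points lie within 500 bp of a start, and points at 0 occur both near starts and far from them.

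The promoters of 6 members are printed here because their measured site falls inside the window and they stand for the patterns described below: Trak1 (uncovered at 0 h and 1 h), Haus8 (lowest at 0 h), Kif26b (lowest at 1 h), Dynll1 and Tubb5 (small differences) and Map7 (never covered). Each is 300 bases from RefSeq (GRCm38.p6), from 250 before to 50 after the annotated start, read 5′ to 3′ on the strand of the gene. Capitals mark short motifs, searched in either orientation. For the GC box, bound by factors of the Sp family, the letters were GGGCGG, and neighbouring matches overlap in places. For the box bound by the factor NF-Y they were CCAAT, which is also its name. For factors of the ETS family the search used CCGGAAG, and for the homology region of cell cycle genes it used TTTGAA. The remaining searches were GCGCATGC for NRF1, TGACGTCA for the cyclic AMP response element (CRE) and either TTTCGCGC or TTTGGCGC for E2F. The windows are chr9:121297252-121297551 (plus strand) for Trak1, chr8:71272541-71272840 (minus strand) for Haus8, chr1:178528875-178529174 (plus) for Kif26b, chr5:115300941-115301240 (minus) for Dynll1, chr17:35838252-35838551 (minus) for Tubb5 and chr10:20148670-20148969 (plus) for Map7.
Trak1: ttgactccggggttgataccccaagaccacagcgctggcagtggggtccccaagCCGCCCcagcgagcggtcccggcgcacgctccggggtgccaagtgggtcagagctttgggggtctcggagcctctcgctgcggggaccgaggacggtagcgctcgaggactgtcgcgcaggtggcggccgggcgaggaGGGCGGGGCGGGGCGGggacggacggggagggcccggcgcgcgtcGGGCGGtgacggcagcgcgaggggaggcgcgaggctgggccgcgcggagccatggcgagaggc
Haus8: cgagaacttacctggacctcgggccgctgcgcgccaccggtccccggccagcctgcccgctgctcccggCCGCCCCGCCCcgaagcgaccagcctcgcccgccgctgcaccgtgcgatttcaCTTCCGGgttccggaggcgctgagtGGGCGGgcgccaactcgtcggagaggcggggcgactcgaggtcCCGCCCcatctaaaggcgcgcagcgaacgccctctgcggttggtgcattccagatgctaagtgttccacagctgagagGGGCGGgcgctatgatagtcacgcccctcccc
Kif26b: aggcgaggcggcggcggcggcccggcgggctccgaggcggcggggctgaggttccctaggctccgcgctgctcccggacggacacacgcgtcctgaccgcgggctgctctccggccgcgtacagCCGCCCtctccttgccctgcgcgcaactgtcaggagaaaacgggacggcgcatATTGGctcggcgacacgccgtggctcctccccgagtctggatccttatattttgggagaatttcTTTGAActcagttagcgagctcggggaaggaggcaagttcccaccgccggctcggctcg
Dynll1: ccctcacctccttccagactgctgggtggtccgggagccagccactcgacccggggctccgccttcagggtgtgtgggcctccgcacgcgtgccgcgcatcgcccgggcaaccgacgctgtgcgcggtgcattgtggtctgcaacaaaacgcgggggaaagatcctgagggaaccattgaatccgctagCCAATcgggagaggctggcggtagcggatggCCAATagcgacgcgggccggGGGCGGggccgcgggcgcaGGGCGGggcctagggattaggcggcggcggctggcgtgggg
Tubb5: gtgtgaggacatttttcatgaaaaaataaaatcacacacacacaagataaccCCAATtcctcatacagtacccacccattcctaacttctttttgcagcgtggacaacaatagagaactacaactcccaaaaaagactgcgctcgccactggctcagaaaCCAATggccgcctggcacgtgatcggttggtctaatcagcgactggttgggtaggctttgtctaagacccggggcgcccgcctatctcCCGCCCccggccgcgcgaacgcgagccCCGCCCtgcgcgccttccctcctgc
Map7: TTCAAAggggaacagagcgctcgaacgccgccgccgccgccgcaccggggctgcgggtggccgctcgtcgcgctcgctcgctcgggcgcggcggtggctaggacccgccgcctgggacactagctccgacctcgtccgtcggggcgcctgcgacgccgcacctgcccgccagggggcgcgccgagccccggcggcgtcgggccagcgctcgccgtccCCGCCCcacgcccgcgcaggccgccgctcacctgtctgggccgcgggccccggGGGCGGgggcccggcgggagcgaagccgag

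The measured site takes bases 241 to 242 of the Trak1 window, 252 to 256 of Haus8, 150 to 153 of Kif26b, 251 to 252 of Dynll1, 249 to 251 of Tubb5 and 221 to 227 of Map7. The Map7 window, at 0 in every library, has a GC content of 81.7% and 55 CpG dinucleotides, more than the Trak1 window with 76.3% and 41 or the Tubb5 window with 55% and 20. It is 1 window: the medians over the promoters of the 7 matched members with a site at 0 in all 5 libraries were 62% and 26. Over those of the 53 members with a site covered in all 5 they were 65% and 27. Each gene was given the promoter nearest to its site at any distance, so the site may lie outside that promoter. For Kif1a and Kif7, among the 7, it lies 31015 and 5345 bp from the nearest annotated start. For the table's genes the medians were 64.3% and 21 for those at 0 in all 5, and 65.7% and 27 for those covered in all 5. The table of promoters matched 69 of the 88 members and 5917 of the 8034 genes. A GC box was found in 48 of the 69 member promoters (69.6%), in 74.7% of the promoters of the table's genes and in 35.7% of all 32851 promoters. A CCAAT box was found in 29 member promoters (42%, against 34.2% and 37.4%), and the letters of the cell cycle homology region in 10 (14.5%, against 8.84% and 17.9%). Of these 10, 7 are among the 24 motor promoters (29.2%), those of Dctn1, Kif15, Kif1a, Kif22, Kif26b, Kif27 and Kifc1, and the others are those of Ckap5, Map7 and Tubb4b. The ETS letters were in 7 member promoters (10.1%, against 14.8% and 8.86%), the NRF1 letters in 5 (7.25%, against 5.49% and 2.71%), the CRE letters in 5 (7.25%, against 3.18% and 1.79%) and the E2F letters in 2 (2.9%, against 1.54% and 0.813%). The 5 promoters with the CRE letters are those of Kif17, Kif5c, Klc1, Clasp2 and Tubb2a. Such matches describe letters in a window and say nothing of binding.

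Kinesins and their adaptors had the widest range of summed entries between libraries among the 6 classes. Kinesins are ATP-driven motors, most of which walk to the plus end. The 24 genes together held 54, 56, 33, 52 and 42 entries, so the 1 h library was the lowest. Their mean per gene was 2.25 at 0 h and 1.38 at 1 h, while that of all genes was 1.88 and 1.85. At 1 h, 10 of the 24 held fewer entries than at 0 h, 2 held more and 12 were equal, while of all genes 21.9% held fewer, 20.6% more and 57.5% the same number. Without Kifc3 and Kif26b, the 2 with the most entries at 0 h, the other 22 held 40, 42, 31, 42 and 36, and 8 of them held fewer at 1 h. The drop at 1 h was thus spread over several genes, though Kifc3 and Kif26b made up more than the rest together.

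Kif26b, an unconventional kinesin, held 7, 6, 2, 5 and 5 entries over a site 100 bp upstream of its start (chr1:178529024-178529027). The 1 h library was lower than the other 4, and on the log2(entries + 1) scale its ratio to 0 h was -1.42. All 7 of its sites within that upstream region held these values, and an eighth site 1307 bp inside the gene held 0, 2, 1, 2 and 2. Kifc3, a minus-end-directed kinesin of epithelial junctions, held 7, 8, 0, 5 and 1 at an internal site (chr8:95142570-95142571). It was among the highest members in 3 libraries and near or at 0 in those of 1 h and 2 h. Kif17, a kinesin-2 motor of dendrites and cilia, held 3, 3, 1, 3 and 2, so it too was lowest at 1 h.

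Kif5c, a heavy chain of conventional kinesin that is enriched in neurons, held 3, 3, 2, 0 and 0 entries at its single site 643 bp inside the gene (chr2:49619928-49619931). It was covered in the first 3 libraries and uncovered in the last 2, a sequence found for 4 of all genes, Kif5c included (0.0498%). Klc1, a kinesin light chain that couples conventional kinesin to cargo, held 0, 1, 0, 5 and 2 at each of its 4 sites. Its paralogue Klc2 held 4, 3, 4, 3 and 3, with no library at 0. Kif1c, a kinesin-3 cargo motor, held 5, 2, 2, 4 and 3, and its site shares these values with that of Inca1, 208 bp away. Kif1b, a kinesin-3 that carries mitochondria and synaptic vesicle precursors, held 2, 2, 2, 4 and 4, higher in the last 2 libraries.

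Trak1, whose protein tethers mitochondria to kinesin and dynein, held 0, 6, 0, 2 and 4 entries at each of 7 sites within 116 bp of sequence around its start. It alternated between uncovered (0 and 1 h) and covered (0.5, 1.5 and 2 h), as did Klc1, and this sequence was found for 2 members (2.27%) and for 1.78% of all genes. Kif13a, an endosomal kinesin-3, held 2, 4, 2, 3 and 2, and Kif3b, a subunit of the ciliary kinesin-2 motor, held 2, 3, 2, 3 and 2. In both, the 0.5 and 1.5 h libraries were higher than the other 3, an order found for 2 members (2.27%, against 3.83% of all genes). Several motors act in cell division. Kif15, a spindle kinesin, held 4, 2, 3, 2 and 2, Kifc1, which focuses spindle poles, held 1, 2, 2, 2 and 1, as did the site named for Kif22, and Kif2a, a microtubule depolymerase, held 2, 1, 2, 1 and 2. Kif21a, which restrains microtubule growth, was highest at 0 h with 5, 3, 4, 3 and 3. Kifbp, a protein that inhibits several kinesins, held 3, 3, 2, 2 and 2, and the kinesin-2 gene Kif3a held 2, 2, 1, 2 and 2. Kif27 was at 1, 0, 0, 1 and 1, at the floor of the scale.

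Kif1a, the main vesicle motor of axons, Kif7, a regulator of Hedgehog signalling in cilia, Kif19a, Kifc2 and Klc3 were at 0 in all 5 libraries. The sites of Kif1a, Kif7 and Kif19a lie 31015, 5345 and 21486 bp downstream of the nearest annotated start, so the starts of these genes were not measured by them. Those of Kifc2 and Klc3 lie 709 and 249 bp downstream of the nearest annotated start.

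The minus-end motor dynein and its activator dynactin were covered in every library for all 5 of their genes, with 10, 13, 10, 12 and 12 entries together. Dctn1, the largest dynactin subunit, held 1 entry and Dctn2, dynamitin, 2 entries in each library. Dynll1, a light chain shared by dynein and many other complexes, held 4, 4, 3, 4 and 3, and the light intermediate chain gene Dync1li1 held 2, 3, 2, 2 and 3. Dynll2, the paralogue of Dynll1, held 1, 3, 2, 3 and 3 at all 7 of its sites, with the 0 h library the lowest. Apart from Dynll2, no gene of this class differed by more than 1 entry between any 2 libraries.

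Tubulin genes showed small steps between libraries. The 8 genes held 17, 14, 14, 15 and 14 entries together, and 6 were covered in every library. No member reached a 2-fold difference from 0 h at any time. Tuba1b, an abundant alpha-tubulin, held 2 in each library, Tuba1c held 4, 3, 4, 3 and 3, and the beta-tubulin gene Tubb4b held 3, 3, 3, 3 and 4. Tubb5, a widely expressed beta-tubulin, held 2, 2, 1, 2 and 1, and Tubb2a held 2, 1, 2, 1 and 2. These are steps of 1 entry. Tubg1, which encodes the gamma-tubulin of the nucleation complex, held 4, 3, 2, 4 and 2, values it shares with a site of Retreg3 72 bp away. Tubb2b, the beta-tubulin gene neighbouring Tubb2a and strongly expressed in developing neurons, was at 0 in every library at a site 82 bp upstream of its start (chr13:34130435-34130437). Tuba4a was also at 0 in every library. Its site lies 625 bp upstream of the nearest annotated start and 1342 bp inside the gene, counted from the 5′ end. Whether short reads were confused between the near-identical paralogues Tubb2a and Tubb2b was not tested. The labels do not say how such reads were treated.

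Enzymes that modify tubulin held 17, 23, 17, 23 and 22 entries over 9 genes. Agbl5, a deglutamylase that removes branch-point glutamates from tubulin, held 0, 5, 4, 4 and 4 at its single site (chr5:30889134-30889136), uncovered at 0 h and similar in the 4 later libraries. Ttll11, a polyglutamylase, held 1, 1, 1, 4 and 3, higher in the last 2 libraries only. Ttll12, a relative of tubulin tyrosine ligase, held 6, 4, 3, 5 and 6, lowest at 1 h. Ttl, which returns the terminal tyrosine to alpha-tubulin, held 3, 3, 2, 2 and 2, and the polyglutamylase gene Ttll4 held 2 throughout. The deglutamylase genes Agbl3 and Agbl4 held 2, 3, 3, 3 and 2, and 1, 2, 1, 2 and 2. Ttll1, another polyglutamylase, held 1, 3, 1, 1 and 1, and Ttll3, a glycylase, held 1, 0, 0, 0 and 0.

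**Figure D3:**
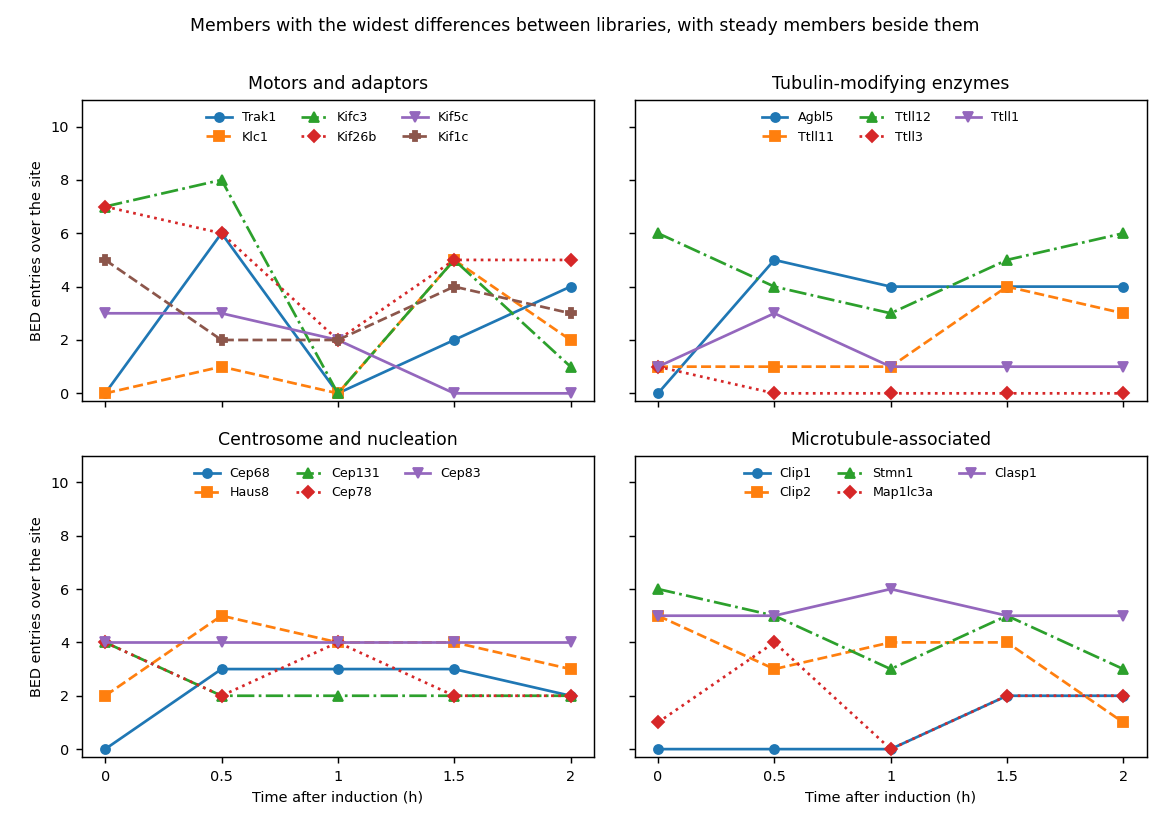
BED entries over the site (vertical axis) against hours after induction (horizontal axis) for 21 members in 4 panels by class, 1 library per time, with lines joining the points of a gene. Trak1 and Klc1 are at 0 at 0 h and 1 h, Agbl5 and Cep68 are at 0 only at 0 h, and Cep83 stays at 4.

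Centrosome and nucleation genes had the highest mean of the 6 classes at 0, 0.5, 1 and 1.5 h, with 2.43, 2.81, 2.57 and 2.76 entries per gene, and 2.38 at 2 h. All 21 were covered at every later time, and 20 of 21 at 0 h. The exception was Cep68, a protein of the fibres that link the 2 centrioles, with 0, 3, 3, 3 and 2 entries at its single site 149 bp inside the gene (chr11:20249273-20249278). Haus8, a subunit of augmin, the complex that branches spindle microtubules, held 2, 5, 4, 4 and 3, while Haus4 of the same complex held 3 in each library. The annotated start of Myo9b lies 127 bp from the Haus8 site. Cep126 and Cep170b each held 1, 3, 2, 2 and 2. In Cep68, Haus8, Cep126 and Cep170b the 0 h library was the lowest. It alone was lowest for 7 of the 88 members (7.95%, against 9.62% of all genes).

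The reverse order was seen at Cep131, a protein of centriolar satellites, with 4, 2, 2, 2 and 2 entries. Cep78 held 4, 2, 4, 2 and 2, equal to a neighbouring site 66 bp away, so 0 h and 1 h were the higher libraries. Cep63, which acts in centriole duplication, held 4, 3, 3, 4 and 2, and Cep170, of the subdistal appendages, 2, 3, 2, 3 and 4. Steady values were common: Cep83, of the distal appendages that dock cilia, held 4 in each library, and Cep192 and Pcnt, scaffolds of the pericentriolar material, held 2. Of the gamma-tubulin complex, Tubgcp2 and Tubgcp6 held 2 throughout, Tubgcp3 held 2, 2, 3, 3 and 1, and Tubgcp4 held 3, 4, 2, 3 and 3. The remaining centrosomal genes, Cep120, Cep135, Cep41, Cep44 and Cep76, ranged from 2 to 3 entries in all libraries.

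The other microtubule-associated proteins held 46, 45, 43, 48 and 40 entries over 21 genes. Clasp1, which stabilises plus ends, had the highest mean of all 88 members, with 5, 5, 6, 5 and 5 entries (chr1:118388906-118388908), and its paralogue Clasp2 held 3, 4, 4, 3 and 4. Stmn1, stathmin, which sequesters tubulin dimers, held 6, 5, 3, 5 and 3 at each of 4 sites, lower at 1 h and 2 h. Clip1, the plus-end protein CLIP-170, held 0, 0, 0, 2 and 2 at its chosen site, and 3 other sites closer to its start held 0, 2, 0, 0 and 1. Its call therefore depends on the site taken. Clip2, the related CLIP-115, held 5, 3, 4, 4 and 1, with the 2 h library the lowest. The end-binding genes Mapre1 and Mapre3 held 3, 3, 2, 2 and 2, and 3, 2, 2, 2 and 2.

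Of the neuronal proteins in this group, Map2 held 2 entries in each library, Mapt, which encodes tau, held 1, 2, 1, 1 and 2, and Map1a held 2, 1, 2, 1 and 1. They were thus covered in every library. Map4, a general microtubule stabiliser, held 4, 3, 3, 4 and 2, Ckap5, a microtubule polymerase, 2, 2, 3, 3 and 2, and the severing enzyme gene Katna1 2, 1, 2, 2 and 1. Map1s held 3, 3, 4, 3 and 3, Map9 held 2, 3, 3, 3 and 2, and Map11 held 2 in each library. Map7, which recruits kinesin-1 to microtubules, Map10 and Clip4 were at 0 throughout, Map7 at all 6 of its sites and 27 bp upstream of its start at the site taken. Map1lc3a, which encodes the autophagosome protein LC3, and Ckap4, a protein of the endoplasmic reticulum, belong by name rather than by function. Map1lc3a held 1, 4, 0, 2 and 2, and Ckap4 held 0, 0, 0, 2 and 2.

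**Figure D4:**
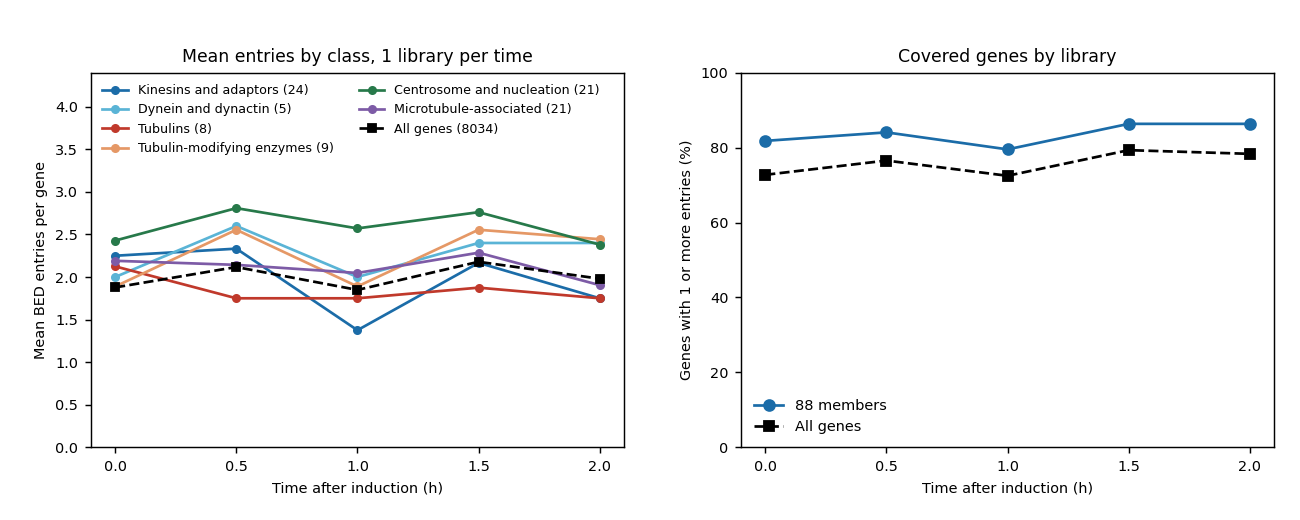
Left, mean BED entries per gene for the 6 classes (coloured lines, number of genes in brackets) and for all genes (black dashes) by hours after induction. Right, the share of genes with 1 or more entries, in percent: the kinesin mean is lowest at 1 h (1.38), and the members' covered share (79.5 to 86.4%) is above that of all genes in each library.

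Set against 0 h, more members held more than fewer entries at 0.5 and 1.5 h, and more held fewer at 1 and 2 h. At 0.5 h, 24 held more (27.3%, against 28.1% of all genes), 21 fewer (23.9%, against 15.6%) and 43 the same number (48.9%, against 56.3%). The members with at least a 2-fold difference on the log2(entries + 1) scale, for which 0 against 1 entry is enough, were 10 higher (11.4%, against 8.2% of all genes) and 3 lower (3.41%, against 2.15%). Higher were Agbl5, Trak1, Cep68, Klc1, Map1lc3a, Haus8, Cep126, Cep170b, Dynll2 and Ttll1, and lower were Kif1c, Kif27 and Ttll3. Of these, Agbl5, Cep68, Klc1 and Trak1 were gained, meaning uncovered at 0 h (4.55%, against 4.79% of all genes), and Kif27 and Ttll3 were lost (2.27%, against 0.983%). With each library divided by its mean over covered sites, which was 2.58 at 0 h and 2.79 at 0.5 h, 4 members were at least 2-fold higher and 3 lower. The shares of all genes after that division were not calculated.

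At 1 h, 16 members held more entries than at 0 h (18.2%, against 20.6% of all genes), 27 fewer (30.7%, against 21.9%) and 45 the same number (51.1%, against 57.5%). Agbl5 and Cep68 were at least 2-fold higher (2.27%, against 4.69%), and both were also gained (against 2.79%). The 7 at least 2-fold lower were Kifc3, Kif26b, Kif1c, Kif17, Kif27, Map1lc3a and Ttll3 (7.95%, against 4.87%). There were 5 kinesins among them. Kifc3, Map1lc3a, Kif27 and Ttll3 were lost (4.55%, against 3.05%). Requiring a difference of 2 entries as well left 4 of the 7, without Kif27, Map1lc3a and Ttll3. The share of all genes under that rule was not calculated.

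At 1.5 h, 25 members held more entries than at 0 h (28.4%, against 31.3% of all genes), 21 fewer (23.9%, against 17.8%) and 42 the same number (47.7%, against 50.8%). At least 2-fold higher were 8 members, Agbl5, Cep68, Klc1, Trak1, Ckap4, Clip1, Ttll11 and Dynll2 (9.09%, against 11.5%), and lower were Kif5c and Ttll3 (2.27%, against 1.8%). The first 6 of the 8 were gained (6.82%, against 7.09%), and Kif5c and Ttll3 were lost (2.27%, against 0.51%).

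At 2 h, 20 members held more entries than at 0 h (22.7%, against 25.7% of all genes), 28 fewer (31.8%, against 22.9%) and 40 the same number (45.5%, against 51.4%). The 8 members at least 2-fold higher at 1.5 h were those at least 2-fold higher at 2 h (9.09%, against 9.56%), a comparison with the same 0 h library. Clip2, Kif5c, Kifc3 and Ttll3 were at least 2-fold lower (4.55%, against 3.45%). Gained were again 6 (6.82%, against 6.61%), and lost 2 (2.27%, against 1.01%). At each of the 4 times the median log2 ratio was 0 for the members and for all genes. The mean log2 ratio of the members was 0.11, -0.09, 0.13 and 0.00 at 0.5, 1, 1.5 and 2 h, and that of all genes 0.13, -0.01, 0.17 and 0.09. A gene at 0 in the 0 h library cannot hold fewer later, and 81.8% of the members against 72.8% of all genes were covered there. The part of this in the shares with fewer entries was not tested.

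**Figure D5:**
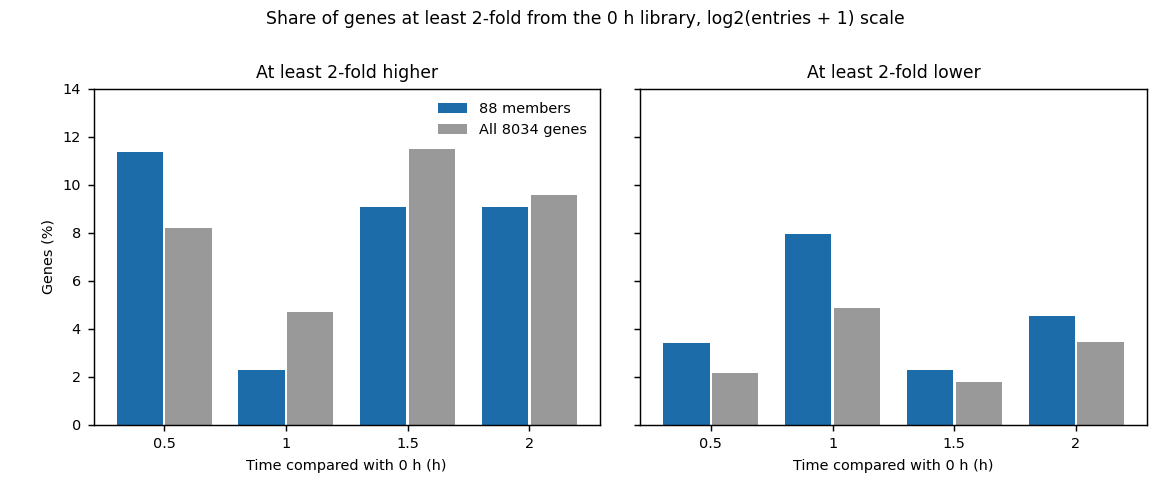
Share of genes (percent) at least 2-fold higher (left) or lower (right) than in the 0 h library on the log2(entries + 1) scale, for the 88 members (blue bars) and all 8034 genes (grey bars) at 4 times. The members' bars are above the grey ones for higher values at 0.5 h alone (11.4 against 8.2%) and for lower values at each time, with the widest gap at 1 h (7.95 against 4.87%).

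After 0.5 h, members with fewer entries outnumbered those with more at the step to 1 h and at the step to 2 h, and the reverse held at the step to 1.5 h. From 0.5 to 1 h, 31 members held fewer entries (35.2%, against 27.8% of all genes), 14 more (15.9%, against 13.2%) and 43 the same number (48.9%, against 59%). No member was at least 2-fold higher (against 1.23%) or gained (against 0.597%). At least 2-fold lower were 7 (7.95%, against 7.79%), namely Kif17, Kif26b, Kifc3, Klc1, Map1lc3a, Trak1 and Ttll1, and of these Kifc3, Klc1, Map1lc3a and Trak1 were lost (4.55%, against 4.67%). The shares of 2-fold lower and lost members were thus near those of all genes.

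From 1 to 1.5 h, 29 members held more entries (33%, against 30.6%), 12 fewer (13.6%, against 15%) and 47 the same number (53.4%, against 54.4%). At least 2-fold higher were 10 (11.4%, against 10.8%), of which 7 were gained (7.95%, against 7.05%). The 7 were Ckap4, Clip1, Kif27, Kifc3, Klc1, Map1lc3a and Trak1, so each of the 4 lost at the step before was covered again. Kif5c alone was at least 2-fold lower (1.14%, against 1.18%) and lost (against 0.199%). From 1.5 to 2 h, 26 held fewer entries (29.5%, against 25.5%), 9 more (10.2%, against 12.9%) and 53 the same number (60.2%, against 61.6%). At least 2-fold lower were Clip2, Kifc3, Klc1 and Tubgcp3 (4.55%, against 4.31%), while none was 2-fold higher (against 1.41%), gained (against 0.909%) or lost (against 1.89%).

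The 0.5 and 1.5 h values were both above the 1 and 2 h values for 9 members (10.2%, against 7.06% of all genes): Cep44, Dynll1, Kif13a, Kif17, Kif3b, Kifc3, Stmn1, Tubb5 and Tubg1. The share of covered sites over the whole table went the same way, down from 0.5 to 1 h, up to 1.5 h and down to 2 h.

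The sites of a gene mostly carried a common value. Of 63 members with 2 or more sites, 47 had equal values at all of them in each library. Kif13a was among the exceptions, with 13 sites over 507 bp of which 6 were at 0 in every library and 4 were covered in all. Of the 6 Kif2a sites, 4 were at 0 in every library and 1 was covered in all. Of the 6 Clasp2 sites 3 were covered in all, and the lowest values over its sites were 0, 4, 4, 3 and 4. Of the 3 Cep170 sites 1 was covered in all, with lowest values of 0, 3, 0, 3 and 4. The values given above for such genes hold for the site taken. For 8 members a site of another gene lay within 500 bp, and in all 8 its values were equal: Cep76 and Psmg2, 132 bp apart, Kif1c and Inca1, Kif22 and Maz, Tubg1 and Retreg3, and Cep78, Cep83, Dynll1 and Tuba1b with unnamed or non-coding genes. Each such pair is 1 region and not 2 observations. By annotated starts, 8 members had a named start of another gene within 500 bp of their site, Kif1c and Tubg1 among them. The others were Haus8 (Myo9b, 127 bp), Cep63 (Anapc13, 149 bp), Tubgcp2 (Zfp511, 56 bp), Tubgcp4 (Zscan29, 92 bp), Ttl (Vinac1, 27 bp) and Cep44 (Fbxo8, 411 bp). Their values cannot be credited to 1 gene alone.

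Other genes of the same processes were read from a list of 89, of which 51 were analysed. In the 5 libraries 43, 45, 45, 47 and 46 of them were covered. At 0.5 h, 12 held more entries than at 0 h, 11 fewer and 28 the same number, and at 1 h these were 11, 15 and 25. At 1.5 h they were 15, 18 and 18, and at 2 h 12, 14 and 25. Of all genes, 28.1, 20.6, 31.3 and 25.7% held more at these times and 15.6, 21.9, 17.8 and 22.9% fewer. At least 2-fold higher were 4, 4, 6 and 4 of the 51, where all genes gave 8.2, 4.69, 11.5 and 9.56%. At least 2-fold lower were 2, 2, 0 and 1 of the 51, where all genes gave 2.15, 4.87, 1.8 and 3.45%. Nek7, a mitotic kinase that acts at the centrosome with Nek6, held 0, 3, 3, 3 and 2, and Nek6 held 0 and then 5 in each later library. Mzt1, a small subunit of the gamma-tubulin complex, held 2, 4, 4, 3 and 4, and Spast, which severs microtubules, held 1, 3, 3, 3 and 3. These 4 genes were lowest at 0 h. Highest at 0 h were, among others, Dpysl2 with 4, 1, 2, 2 and 2, Mark3 with 3, 1, 1, 2 and 2, and Vash1 with 3, 2, 1, 2 and 2. Numa1, which anchors dynein at spindle poles, held 3, 2, 5, 2 and 1, highest at 1 h. The sites of Nek6, Numa1 and Dpysl2 lie 27966, 36161 and 43442 bp inside their genes, counted from the 5′ end. Pafah1b1, the dynein regulator LIS1, held 4, 4, 4, 5 and 5, Ndel1, its partner, held 3, 2, 2, 2 and 2, and the mitotic kinase gene Aurkb held 2 in each library. Slain1, a plus-end protein, held 0, 0, 0, 2 and 2, the same values as Clip1 and Ckap4.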

How the data were processed

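ATAC-seq was measured in 5 libraries of C17.2 cells, 1 per time. Per the submitters' processing notes, the tools were Bowtie2, MACS2 and deepTools and the build GRCm38 (mm10), without versions or settings. Treatment of duplicates, any read shift and the peak threshold are not stated in the labels. Columns of the deposited table are named after BED files per the file headers, and reading its whole numbers as entries is an inference from the values. Members were matched by symbol and split into 6 classes by symbol. Each gene took the site with the highest mean, ties going to the site nearest the gene's 5′ end. Ratios are log2((entries + 1)/(entries at 0 h + 1)), with no filter on low values and no scaling. RefSeq tables of GRCm38.p6 gave promoters and starts, the nearest start being that of a promoter entry or the gene's 5′ end. The calculation of the calls was checked on made-up changes without noise, for which the rule fixes the outcome in advance. That check says nothing of the error of a real call. Named members are those at least 2-fold and 2 entries from 0 h, lost at a later time, among the 3 highest or 3 steady of their class, or at 0 throughout; others were named after their values were seen. Members, lists and alternatives were chosen with earlier results of these data known. No test was run, as there was 1 library per time. Python 3.11.15, pandas 2.3.3 and numpy 2.4.6 were used.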

Additional observations from a re-analysis of the deposited data

How the results depend on the processing

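No paired analysis was possible because there was 1 library per time. Of 81 recomputed counts of members, 70 stayed within 1.5 times the reported count, and those of covered members all did. Adding 0.5 in place of 1 to the entries cannot change a 2-fold call on whole numbers, so those counts were fixed in advance. Alternatives that take another site cannot change the 25 members with 1 site or the 47 with equal values at all sites. With genes of a mean under 2.2 entries, the median gene, left out, members at least 2-fold higher numbered 5 at 0.5 h, 4 at 1.5 h and 4 at 2 h, and those lower 1, 4, 0 and 2 at the 4 times, among 47 members left. With a difference of 2 or more entries also required, members lower than at 0 h were 1, 4 and 1 at 0.5, 1 and 1.5 h. With values divided by each library's mean over covered sites, 4 were higher at 0.5 h, and Cep126, Cep170b, Dynll2, Haus8, Klc1 and Ttll1 fell short of 2-fold. With the site nearest to the 5′ end, Cep170b at 0.5 h and Ckap4 and Clip1 at 1.5 h had a ratio of 0. None of 21 named ratios changed sign under the 3 alternatives run on them. Restricting to the 78 members with a site within 1000 bp of a start, chosen after seeing the data, kept every count within 1.5 times. The shares of all genes were not calculated under these alternatives, so the recomputed counts of members cannot be set against them. The cause of these differences was not tested, beyond fewer genes passing a stricter rule. Unknown read depth and the single library per time limit every value: a step of 1 entry has no known error.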
